A study of Mus musculus with 9 samples.

Results

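Transcripts of the hyaloid vessels and of the macrophages around them were measured in whole lenses of *Atf4* null and wildtype mouse embryos. *Pecam1*, *Cdh5*, *Cldn5*, *Kdr*, *Flt1* and *Tek* stood for vascular endothelium, and *Csf1r*, *Mrc1*, *C1qa* and *Lyve1* for macrophages. These 10 genes were picked by symbol, 10 of the 55416 gene identifiers counted. The data comprised 4 *Atf4* null and 5 wildtype libraries from embryos at E16.5, each made from the pair of lenses of a single embryo. All embryos came from *Atf4* +/- intercrosses on a mixed C57Bl/6 and 129 background, so the wildtype embryos were littermate controls. The null embryos were homozygous for the *Atf4*tm1Tow allele, in which a neomycin cassette takes the place of exon 3 and 4. The deletion was germline, so vessels and macrophages lacked *Atf4* as well as the lens. The lenses were dissected whole with no sort of cells, so vessels and macrophages enter a library only as far as they stayed on the lens. In such bulk RNA, fewer cells of a type and less RNA per cell cannot be told apart. The paper reports that the null lenses were smaller at E16.5. Levels here are relative to all RNA of a sample, so a changed share of lens RNA cannot be told apart from these either.

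The embryonic lens holds no vessels of its own. It is wrapped by the tunica vasculosa lentis, the capillary net of the hyaloid artery, which feeds the lens before the aqueous humor does and regresses around birth. Macrophages lie along these capillaries and take part in their regression, in part through WNT7B, which binds the receptor complex of FZD4 and LRP5 or LRP6 on endothelial cells. Endothelial growth and survival depend on VEGFA, made by lens and retina and read by KDR and FLT1, while CSF1 and IL34 maintain macrophages through CSF1R.

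The stretches just upstream of the start of *Tek*, *Mrc1* and *C1qa* are shown, since vessel and macrophage genes are classically controlled by ETS family factors, among them ERG in endothelium and PU.1 in macrophages, and since the ATF4 element can be looked for in the same letters. Each is the 250 bases before the canonical start in GRCm39, from the reference genome with GENCODE vM39, written 5′ to 3′ on the strand of the gene. Capitals mark matches to the letters GGAAGT, the core of many ETS elements, on either strand. In *Mrc1* they extend to ACTTCCTG, the reverse complement of CAGGAAGT.

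*Tek* (chr4:94627041-94627290, plus strand): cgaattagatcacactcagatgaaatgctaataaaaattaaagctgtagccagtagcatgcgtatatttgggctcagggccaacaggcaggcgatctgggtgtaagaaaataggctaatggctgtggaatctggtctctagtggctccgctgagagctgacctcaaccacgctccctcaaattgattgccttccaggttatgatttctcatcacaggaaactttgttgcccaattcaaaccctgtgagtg

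*Mrc1* (chr2:14233901-14234150, plus strand): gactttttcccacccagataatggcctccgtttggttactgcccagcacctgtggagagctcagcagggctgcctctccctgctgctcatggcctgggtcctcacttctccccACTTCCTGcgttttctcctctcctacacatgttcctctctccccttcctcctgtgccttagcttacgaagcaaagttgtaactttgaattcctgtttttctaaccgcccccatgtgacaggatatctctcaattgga

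*C1qa* (chr4:136626162-136626411, minus strand): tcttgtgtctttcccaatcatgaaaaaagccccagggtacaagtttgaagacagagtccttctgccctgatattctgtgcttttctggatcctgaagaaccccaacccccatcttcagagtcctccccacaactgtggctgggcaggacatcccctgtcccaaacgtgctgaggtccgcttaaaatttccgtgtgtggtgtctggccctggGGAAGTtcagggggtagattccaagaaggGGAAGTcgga

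Such windows were examined for 8 of the 10 genes, all but *Csf1r* and *Cdh5*. Among these, *Kdr*, *Flt1*, *Mrc1* and *C1qa* held GGAAGT on either strand, and *C1qa* held it at 2 places, 39 and 10 bases before its start. Of the 21770 windows of the same length upstream of protein-coding genes, 19.0% held these letters, which were added to the search after the windows had been read. The longer CAGGAAGT, which contains GGAAGT, was found in *Mrc1* alone among the 8 genes, 137 bases before its start, and in 2.49% of all windows. The PU.1 letters GAGGAAGT, which also contain GGAAGT, lay in 2.08% of all windows and in none of the 8. The ATF4 element TGATGCAA lay in 0.887% of all windows and in none of the 8, which says only that these letters are not in these 250 bases.

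Each library held 7440807 to 8906996 counts on genes. *Atf4* had 119 to 155 CPM in the wildtype libraries and 0.582 to 10.6 CPM in the null libraries, and so went with the label of every library. CPM are counts relative to the size of the library after scaling by TMM factors. Wildtype replicate 5 stood apart from the other 8 libraries, with 9356 summed CPM of 10 skeletal muscle genes against 28.1 to 47.2 in the other wildtype libraries, and with 15104 summed CPM of 10 mesenchyme genes against 301 to 326. The *Atf4* null libraries had 29 to 121 CPM of the muscle and 274 to 653 CPM of the mesenchyme list. These sums hold opposite changes. Without wildtype replicate 5, 4 of the 6 muscle genes tested were higher in the nulls. *Tnni1* fell there without overlap (log2 fold change -2.62, adjusted p = 0.0028, edgeR), beside 4.96% of all genes that fell. In the mesenchyme list *Pdgfra* fell, from 180 to 227 CPM in wildtype replicates 1 to 4 to 6.70 to 26.2 CPM in the nulls, while other genes of that list rose. Without wildtype replicate 5, 8 of the 9 mesenchyme genes tested were higher in the nulls and 6 of these passed (edgeR), beside 8.33% of all genes in either direction. The median log2 fold change was 2.52, and *Col1a1* had 8.99 to 29.1 CPM in the wildtype and 93.7 to 146 CPM in the nulls. A list of 6 pigment cell genes summed to 31.1 to 155 CPM in the wildtype, highest in replicate 5, and to 45.9 to 118 CPM in the nulls. Every member is therefore given with and without this library. A list of 10 retina genes summed to 177 to 291 CPM in the wildtype, below the 312 to 860 CPM of the *Atf4* null libraries. Lens genes such as *Cryaa* and *Crybb1* were present throughout. Of 9 lens genes tested with all 9 libraries, *Foxe3* and *Bfsp1* passed, both lower in the nulls, beside 3.67% of all genes that fell. *Foxe3* had 74.85 to 160 CPM in the wildtype and 7.13 to 41.3 CPM in the nulls, with a log2 fold change of -2.23 (adjusted p = 0.00347, edgeR). That of *Bfsp1* was -1.42 (adjusted p = 0.00417, edgeR). *Lim2*, a membrane protein of lens fibers, was at 0 counts in all 9 libraries. Whether annotation or the assignment of reads accounts for this was not tested. The lens list summed to 56782 to 104029 CPM in the wildtype and 43443 to 104499 CPM in the null libraries. The part of these tissues in the differences below was not tested. The replicate numbers of the wildtype libraries follow their titles and are uncertain, since title and counts name different wildtype libraries.

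The first question was whether vessel and macrophage transcripts differed between *Atf4* null and wildtype lenses. All 6 vessel genes had lower fitted levels in the *Atf4* null lenses, by 0.28 to 1.12 on the log2 scale with all 9 libraries and by 0.18 to 0.73 without wildtype replicate 5. The 4 macrophage genes had fitted differences from -0.18 to 0.41 and from -0.25 to 0.52, with 2 below and 2 above 0 in each fit. None of the 10 passed an adjusted p of 0.05 in edgeR's quasi-likelihood test, with or without wildtype replicate 5. Over all genes, 5.90% of the 14903 tested passed with all 9 libraries and 8.33% of the 14493 tested passed without that library, and 3.67% and 4.96% passed with a lower level in the *Atf4* null lenses. At an unadjusted p below 0.05 stood 4 of the 10 with all 9 libraries, namely *Pecam1*, *Cdh5*, *Flt1* and *Tek*, against a background of 19.6% of genes in either direction and 10.2% in the lower direction. Without wildtype replicate 5 these were 3 of the 10, *Pecam1*, *Cdh5* and *Tek*, against 21.6% and 10.8%. Other tools called *Pecam1* and *Tek* (DESeq2) or *Tek* (edgeR's exactTest) with all 9 libraries, and none of the 10 without wildtype replicate 5. The CPM of the groups overlapped for all 10 genes in both comparisons, while 10.2% and 15.3% of all genes tested had groups without overlap.

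*Pecam1*, the adhesion receptor CD31 of endothelial cell contacts (ENSMUSG00000020717, chr11:106543689-106641454, minus strand), was measured at 41.6, 37.9, 46.8, 41.4 and 66.2 CPM in wildtype replicates 1 to 5. Its levels were 25.0, 22.8, 41.4 and 16.45 CPM in *Atf4* null replicates 1 to 4. Null replicates 1, 2 and 4 lay below every wildtype library, and null replicate 3 lay among them. The mean was 46.8 ± 11.3 CPM (SD, n = 5) in wildtype, 41.9 ± 3.68 (SD, n = 4) without replicate 5, and 26.4 ± 10.7 (SD, n = 4) in the null lenses. The fitted log2 fold change was -0.82, with a 95% interval from -1.37 to -0.27 and an adjusted p of 0.0818 in edgeR's test. Without wildtype replicate 5 it was -0.66, from -1.16 to -0.16, with an adjusted p of 0.0996. The two-sided exact permutation test of the genotype labels gave p = 0.024 with all 9 and p = 0.086 with 8, where the smallest p possible is 0.0079 and 0.029.

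*Cdh5*, which encodes VE-cadherin of the endothelial adherens junction (ENSMUSG00000031871, chr8:104828231-104871143, plus strand), had 101, 87.3, 122, 121 and 178 CPM in the wildtype and 75.9, 86.6, 105 and 36.8 CPM in the *Atf4* null libraries. Here again 3 null libraries lay below all wildtype libraries and null replicate 3 lay among them, while wildtype replicate 5 was highest. The log2 fold change was -0.68, from -1.24 to -0.12 (adjusted p = 0.161, edgeR), and -0.50, from -0.98 to -0.02, without wildtype replicate 5 (adjusted p = 0.209, edgeR). The exact permutation p was 0.048 and 0.11. The exons of *Cdh5* share 87 bases with an antisense lncRNA, *Gm64067*, and the strand setting of the counting is not given in the sources used here. *Cldn5*, the main claudin of endothelial tight junctions (ENSMUSG00000041378, chr16:18595597-18597012, plus strand), had 17.7, 12.5, 27.1, 23.8 and 23.6 CPM in the wildtype and 5.88, 22.3, 16.8 and 7.13 CPM in the null libraries. Null replicates 1 and 4 lay below the wildtype range and the others inside it. Its log2 fold change of -0.68 had an interval from -1.49 to 0.13, and that of -0.63 without wildtype replicate 5 had an interval from -1.44 to 0.18 (adjusted p = 0.353 and 0.372, edgeR).

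The receptors for VEGF and angiopoietin differed among themselves. *Kdr*, the main signaling receptor for VEGFA (ENSMUSG00000062960, chr5:76093487-76139884, minus strand), had 86.8, 120, 130, 146 and 163 CPM in the wildtype and 141, 103, 122 and 58.4 CPM in the *Atf4* null libraries. Only null replicate 4 left the wildtype range. The log2 fold change was -0.28, from -0.78 to 0.21, and -0.18, from -0.64 to 0.27, without wildtype replicate 5 (adjusted p = 0.564 and 0.692, edgeR). *Flt1*, which binds VEGFA and PGF and also occurs as a soluble decoy (ENSMUSG00000029648, chr5:147498414-147662826, minus strand), had 59.6, 68.4, 108, 106 and 117 CPM in the wildtype and 45.7, 82.9, 75.1 and 57.7 CPM in the null libraries. Null replicates 1 and 4 were below the lowest wildtype library and the others between the wildtype values. For *Flt1* the log2 fold change was -0.49, from -0.97 to -0.01, and -0.38, from -0.84 to 0.07, without wildtype replicate 5 (adjusted p = 0.245 and 0.324, edgeR).

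*Tek*, the angiopoietin receptor TIE2 (ENSMUSG00000006386, chr4:94627291-94763224, plus strand), had 17.8, 23.0, 27.3, 31.3 and 63.1 CPM in the wildtype and 12.3, 11, 23.4 and 13.1 CPM in the *Atf4* null libraries. Null replicates 1, 2 and 4 lay together below the wildtype range and null replicate 3 inside it. Wildtype replicate 5 had a level far above the next highest library, and the wildtype mean was 32.5 ± 17.8 CPM (SD, n = 5) with it and 24.8 ± 5.77 CPM (SD, n = 4) without it, against 14.9 ± 5.68 CPM (SD, n = 4) in the null lenses. The log2 fold change was -1.12, from -1.89 to -0.36, with all libraries and -0.73, from -1.30 to -0.15, without wildtype replicate 5 (adjusted p = 0.0883 and 0.118, edgeR). The exact permutation p was 0.048 and 0.086.

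**Figure D1:**
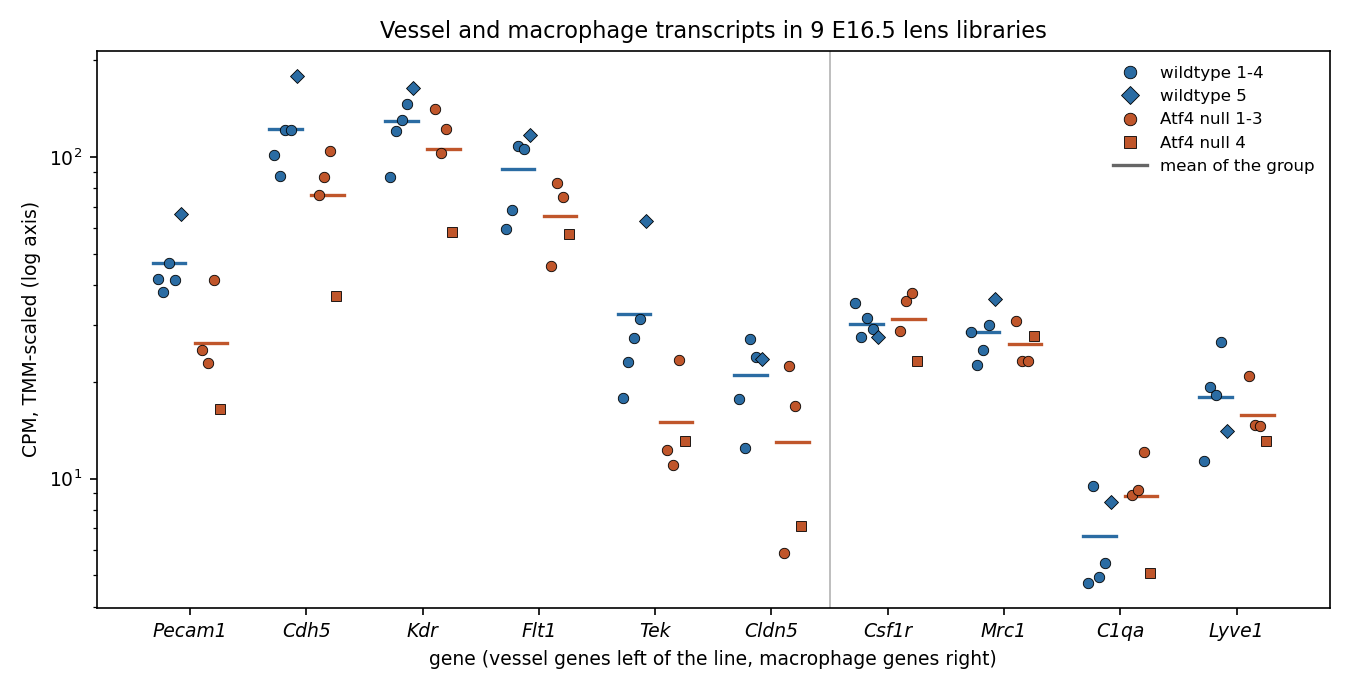
TMM-scaled CPM (log axis) of the 6 vessel genes, left of the line, and the 4 macrophage genes, right of it, in each library. Diamonds are wildtype replicate 5, squares are *Atf4* null replicate 4, circles are the other libraries and bars are group means. For *Pecam1*, 3 null libraries lie at 16.45 to 25.0 CPM, below every wildtype library, and the third null replicate at 41.4 CPM lies among them, while the macrophage genes of the groups intermix.

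Single libraries carried part of these differences. *Atf4* null replicate 4 was below every wildtype library for all 6 vessel genes, and wildtype replicate 5 was the highest wildtype library for 5 of them, all but *Cldn5*. Without both, the log2 fold change was -0.49 for *Pecam1*, -0.28 for *Cdh5*, -0.68 for *Tek*, -0.44 for *Cldn5*, -0.33 for *Flt1* and 0.02 for *Kdr*, and none of the 6 passed (adjusted p from 0.141 to 0.968, edgeR). Without *Atf4* null replicate 3, *Pecam1* passed, with a log2 fold change of -1.13 (adjusted p = 0.0236, edgeR), and *Tek* did not. Without that library and wildtype replicate 5, both *Pecam1* (-0.96, adjusted p = 0.0119, edgeR) and *Tek* (-1.03, adjusted p = 0.0312, edgeR) passed.

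**Figure D2:**
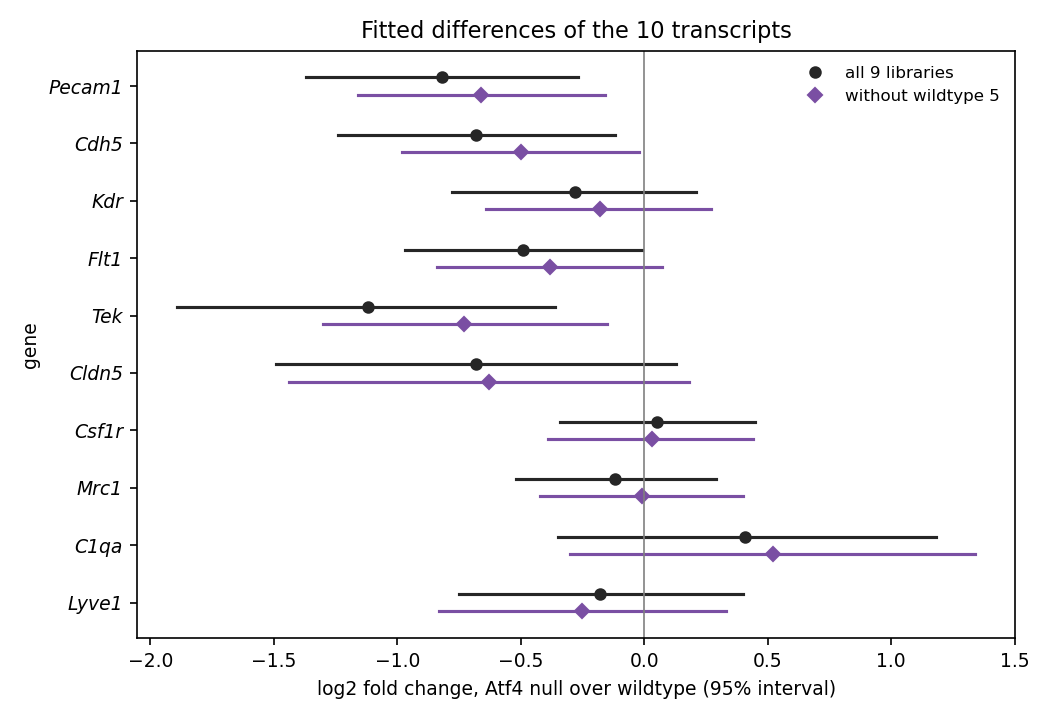
Fitted log2 fold changes of the 10 genes, *Atf4* null over wildtype, with 95% intervals, from all 9 libraries (circles) and without wildtype replicate 5 (diamonds). The intervals of *Pecam1*, *Cdh5* and *Tek* lie below 0 in both fits, without adjustment for the number of genes tested, and those of the 4 macrophage genes span 0.

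The macrophage genes showed no difference past the test. *Csf1r*, the receptor for CSF1 and IL34 on which most tissue macrophages depend (ENSMUSG00000024621, chr18:61229714-61266535, plus strand), had 35.2, 27.5, 31.5, 29.2 and 27.5 CPM in the wildtype and 28.7, 35.6, 37.8 and 23.1 CPM in the *Atf4* null libraries. Null replicates 2 and 3 lay above the wildtype range, null replicate 4 below it and null replicate 1 inside it. The log2 fold change was 0.05, from -0.34 to 0.45, and 0.03, from -0.39 to 0.44, without wildtype replicate 5 (adjusted p = 0.918 and 0.966, edgeR). On the linear scale the first interval ran from 0.791-fold to 1.36-fold. *Csf1r* exons overlap 1461 bases of the antisense gene *Hmgxb3*, which was measured at 49.9 to 62.3 CPM in the wildtype and 45.9 to 64.9 CPM in the null libraries.

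*Mrc1*, the mannose receptor CD206 of resident macrophages (ENSMUSG00000026712, chr2:14234151-14336926, plus strand), had 28.5, 22.6, 25.1, 30 and 36.2 CPM in the wildtype and 30.9, 23.2, 23.2 and 27.8 CPM in the *Atf4* null libraries. All null libraries lay inside the wildtype range. The log2 fold change was -0.12, from -0.52 to 0.29, and -0.01, from -0.42 to 0.40, without wildtype replicate 5 (adjusted p = 0.812 and 0.988, edgeR). *Lyve1*, the hyaluronan receptor that marks hyalocyte-like and perivascular macrophages as well as lymphatic endothelium (ENSMUSG00000030787, chr7:110448585-110462460, minus strand), had 11.3, 19.3, 18.2, 26.6 and 14 CPM in the wildtype and 20.8, 14.6, 14.6 and 13.1 CPM in the null libraries. Again every null library lay inside the wildtype range. The fitted log2 fold change was -0.18, from -0.75 to 0.40, and -0.25, from -0.83 to 0.33, without wildtype replicate 5 (adjusted p = 0.794 and 0.669, edgeR).

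*C1qa*, a chain of the complement component C1q that macrophages secrete (ENSMUSG00000036887, chr4:136623223-136626161, minus strand), had 4.75, 9.50, 4.94, 5.44 and 8.46 CPM in the wildtype and 8.87, 9.24, 12.1 and 5.10 CPM in the *Atf4* null libraries. Only null replicate 3 left the wildtype range. These levels rest on 35 to 110 counts per library, the fewest of the 10 genes. The log2 fold change was 0.41, from -0.35 to 1.18, and 0.52, from -0.30 to 1.34, without wildtype replicate 5 (adjusted p = 0.598 and 0.491, edgeR). On the linear scale the intervals ran from 0.783-fold to 2.27-fold and from 0.813-fold to 2.53-fold, so that no difference was detectable at this depth and spread.

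Exact permutation tests of the other members gave p = 0.34 and 0.54 for *Kdr*, 0.13 and 0.23 for *Flt1*, 0.13 and 0.20 for *Cldn5*, 0.82 and 1.0 for *Csf1r*, 0.54 and 0.97 for *Mrc1*, 0.25 and 0.26 for *C1qa* and 0.64 and 0.54 for *Lyve1*, with and without wildtype replicate 5.

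Summed over the genes of each kind, the 6 vessel genes reached 325, 349, 461, 469 and 611 CPM in the wildtype and 306, 329, 383 and 190 CPM in the *Atf4* null libraries. The 4 macrophage genes summed to 79.7, 78.9, 79.7, 91.3 and 86.2 CPM in the first group and 89.3, 82.7, 87.7 and 69.2 CPM in the second. The vessel sum of null replicate 4 was the lowest of all and that of wildtype replicate 5 the highest, whereas the macrophage sums lay close together apart from null replicate 4. The ratio of the macrophage to the vessel sum was 0.141 to 0.245 in the wildtype and 0.229 to 0.365 in the null libraries, and the ranges overlapped.

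Per length of exon, *Cdh5* had the highest level of the 10 in wildtype lenses, 27.8 ± 7.9 FPKM (SD, n = 5), followed by *Cldn5* at 14.8 ± 4.1 and *Kdr* at 14.1 ± 3.14, which did not differ beyond their spread. *Flt1* (6.71 ± 1.89), *Tek* (5.41 ± 2.97), *Pecam1* (4.68 ± 1.13), *Lyve1* (4.29 ± 1.4), *C1qa* (4.11 ± 1.37), *Csf1r* (4.1 ± 0.439) and *Mrc1* (3.64 ± 0.664 FPKM) formed a run in which no neighbors differed beyond their spread. Without wildtype replicate 5, *Tek* was at 4.14 ± 0.961 FPKM (SD, n = 4), below *Lyve1* at 4.52 ± 1.5, *Pecam1* at 4.19 ± 0.368 and *Csf1r* at 4.19 ± 0.449, and *Cdh5*, *Cldn5*, *Kdr* and *Flt1* kept their order at 24.6, 14.3, 13.1 and 6.26 FPKM. In the *Atf4* null lenses the order began in the same way except that *Kdr*, at 11.5 ± 3.85 FPKM (SD, n = 4), stood above *Cldn5* at 9.2 ± 5.56, and *C1qa*, at 5.48 ± 1.78, stood above *Flt1* at 4.78 ± 1.23. *Pecam1* (2.64 ± 1.06) and *Tek* (2.49 ± 0.945 FPKM) came last there. The lengths are those of all annotated exons of a gene together, which lowers the FPKM of genes with rare long isoforms.

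Further genes of the same cell types were read from lists, described by their counts and medians with no test of a list. Of 22 other endothelial genes, all 22 had lower fitted levels in the *Atf4* null lenses with all 9 libraries, with a median log2 fold change of -0.74. Without wildtype replicate 5, 20 of 22 were lower, with a median of -0.54. Over all genes tested the medians were 0.00 and 0.03, and 49.9% and 47.3% of genes were lower. The genes of the list were measured in the same libraries and are not independent of each other. Their sum was lowest in null replicate 4 (274 CPM) and highest in wildtype replicate 5 (735 CPM). *Plvap*, the diaphragm protein of fenestrated capillaries, *Egfl7*, a factor secreted by endothelium, and *Robo4*, an endothelial guidance receptor, fell with all 9 libraries, and *Plvap* and *Robo4* also fell without wildtype replicate 5, beside the 3.67% and 4.96% of all genes that fell. *Robo4* had 21.8, 13.8, 32.9, 21.4 and 20.2 CPM in the wildtype and 11.2, 12, 12.3 and 7.86 CPM in the null libraries. The groups did not overlap, and its log2 fold change was -1.02 and -1.05 (adjusted p = 0.0368 and 0.028, edgeR). *Egfl7* had 20.0 to 32.7 CPM in the wildtype and 9.67 to 19.6 CPM in the null libraries, a log2 fold change of -0.94 (adjusted p = 0.0439, edgeR), and of -0.82 without wildtype replicate 5 (adjusted p = 0.0618, edgeR). The calls depended on single libraries, since leaving out *Atf4* null replicate 1, 2 or 4 or wildtype replicate 3 from the 9 left none of the 22 past the test, and scaling by library size alone did so too. *Vwf* and *Eng*, the most abundant of the list, had log2 fold changes of -0.19 (adjusted p = 0.743, edgeR) and -0.59 (adjusted p = 0.0995, edgeR).

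Of 10 pericyte genes, which mark the cells that wrap capillaries, *Rgs5* and *Abcc9* fell in both fits, beside the 3.67% and 4.96% of all genes that fell. *Rgs5* had 95.4, 125, 205, 171 and 122 CPM in the wildtype and 76.3, 51.1, 103 and 35.2 CPM in the *Atf4* null libraries, with null replicate 3 inside the wildtype range. Its log2 fold change was -1.11 with all 9 libraries and -1.16 without wildtype replicate 5 (adjusted p = 0.0355 and 0.0136, edgeR). *Abcc9*, a potassium channel subunit of pericytes, had 40.6 to 130 CPM in the wildtype and 19.8 to 35.9 CPM in the null libraries without overlap, and its log2 fold change was -1.19 and -0.83 (adjusted p = 0.0422 and 0.0273, edgeR). *Notch3*, the receptor by which mural cells mature, had 91.4 to 177 CPM and 72.2 to 123 CPM, with a log2 fold change of -0.33 (adjusted p = 0.383, edgeR), and of -0.16 without wildtype replicate 5 (adjusted p = 0.622, edgeR). The median of the list was -0.56 with all 9 libraries and -0.16 without wildtype replicate 5, when 6 of 9 genes tested were lower. Neither *Rgs5* nor *Abcc9* passed under library size alone in either comparison, under the robust fit with all 9 libraries, or when wildtype replicate 3 or 4 or null replicate 2 or 4 was left out of the 9.

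Of 23 other macrophage genes, 20 were tested with all 9 libraries, and none passed in edgeR's test. There were 2 at an unadjusted p below 0.05 in each fit, against 19.6% and 21.6% of all genes. With all 9 libraries these were *F13a1*, which was lower in the nulls, and *Cd53*, which was higher at 1.097 to 3.35 CPM against 0 to 1.285 CPM, and without wildtype replicate 5 they were *F13a1* and *Adgre1*, both lower. The median log2 fold change was 0.08, with 8 lower and 12 higher, against -0.01, with 10 lower and 9 higher, without wildtype replicate 5. *Stab1*, a scavenger receptor shared by macrophages and sinusoidal endothelium, had 161 to 215 CPM in the wildtype and 132 to 200 CPM in the nulls. *F13a1*, the coagulation factor XIII subunit of resident macrophages, had 30.4 to 37.6 CPM in the wildtype and 15 to 27.9 CPM in the null libraries. Its groups did not overlap, and its log2 fold change was -0.57 in both fits (adjusted p = 0.124 and 0.111, edgeR). The other C1q chains, *C1qb* and *C1qc*, had log2 fold changes of 0.22 and 0.68 (adjusted p = 0.855 and 0.395, edgeR). The summed level of the list, most of it *Stab1*, was 280 to 338 CPM in the wildtype and 248 to 308 CPM in the nulls. Apart from *Stab1* and *F13a1*, the levels ran from *Cx3cr1*, at 9.24 to 24.3 CPM, down to *Cd14*, at 0 counts in all 9 libraries, with the leukocyte gene *Ptprc* at 0.253 to 6.25 CPM. *Cd53*, *Adgre1*, *Cx3cr1*, *Cd14* and *Ptprc* were named after their values had been seen.

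**Figure D3:**
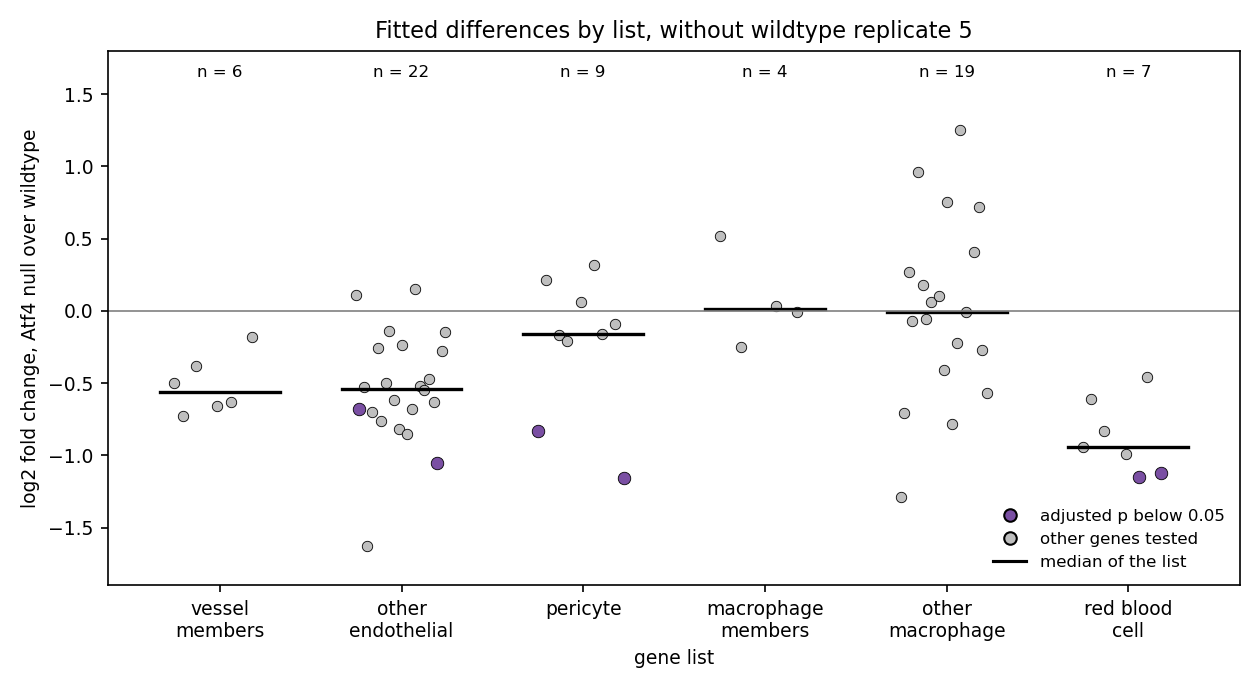
Fitted log2 fold change of every tested gene in 6 lists, *Atf4* null over wildtype, without wildtype replicate 5. Filled purple points passed an adjusted p of 0.05 and bars are the median of each list. The vessel members and the other endothelial genes center on -0.57 and -0.54, and the macrophage members and the other macrophage genes on 0.01 and -0.01.

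Red blood cell transcripts were examined beside them. Fetuses without *Atf4* are known to be anemic, with less blood formation in the fetal liver, so that fewer red cells in the blood and less blood in the lens sample cannot be told apart in these values. All 8 tested of 9 genes were lower with all 9 libraries, with a median log2 fold change of -0.99, and all 7 tested were lower without wildtype replicate 5, with a median of -0.94. *Hba-a1*, an alpha globin, had 63.0 to 172 CPM in the wildtype against 34.1 to 59.0 CPM in the nulls, without overlap. It fell by 1.14 on the log2 scale (adjusted p = 0.0208, edgeR) and by 1.15 without wildtype replicate 5 (adjusted p = 0.0113, edgeR). *Hbb-bs*, a beta globin, had 105 to 353 CPM and 75.8 to 117 CPM, with a log2 fold change of -1.13 (adjusted p = 0.0556, edgeR) and, without wildtype replicate 5, of -1.12 (adjusted p = 0.0349, edgeR). Reads shared by *Hba-a1* and its near-identical copy *Hba-a2* may not have been assigned, which was not tested, so the levels of both are uncertain. *Hba-a2*, named after its values had been seen, had a log2 fold change of -0.90 (adjusted p = 0.154, edgeR). Without wildtype replicate 5 it was -0.83 (adjusted p = 0.153, edgeR).

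Ligands of these receptors were compared next. *Vegfa* fell in the *Atf4* null lenses, with 197, 169, 191, 176 and 220 CPM in the wildtype and 125, 120, 114 and 148 CPM in the null libraries. The groups did not overlap. Its log2 fold change was -0.59, from -0.84 to -0.33, and -0.53, from -0.78 to -0.27, without wildtype replicate 5 (adjusted p = 0.0103 and 0.0112, edgeR). Leaving out null replicate 2 or 3 gave -0.56 and -0.54 and an adjusted p of 0.0513 and 0.0532 (edgeR). *Pgf*, a FLT1 ligand, had 16.3, 14.7, 13.2, 7.21 and 13.4 CPM in the wildtype and 7.67, 7.56, 7.68 and 2.91 CPM in the null libraries, so that only wildtype replicate 4 lay among the null values. Its log2 fold change was -1.0, from -1.75 to -0.25, and -0.98 without wildtype replicate 5 (adjusted p = 0.121 and 0.122, edgeR). *Vegfb* had 62.8 to 103 CPM and 55.4 to 74.5 CPM, with a log2 fold change of -0.22 (adjusted p = 0.494, edgeR). *Vegfc*, a ligand of KDR and of the lymphatic receptor, had log2 fold changes of 0.23 and, without wildtype replicate 5, 0.42 (adjusted p = 0.842 and 0.675, edgeR).

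The TIE2 ligands were low and uneven. *Angpt1*, the agonist, had 4.11, 3.70, 1.61, 3.54 and 33.1 CPM in the wildtype and 3.49, 0.120, 0.658 and 0.582 CPM in the *Atf4* null libraries. Wildtype replicate 5 held most of the wildtype signal, and the log2 fold change of -2.88 (adjusted p = 0.12, edgeR) became -1.39 (adjusted p = 0.371, edgeR) without it. *Angpt2*, made by endothelium during remodeling, had 5.78 to 22.7 CPM and 4.82 to 15.5 CPM, with a log2 fold change of -0.71 (adjusted p = 0.43, edgeR), and of -0.40 without wildtype replicate 5 (adjusted p = 0.662, edgeR). *Csf1* had 5.57 to 20.5 CPM and 9.72 to 18.4 CPM, with a log2 fold change of 0.18 (adjusted p = 0.849, edgeR), and of 0.47 without wildtype replicate 5 (adjusted p = 0.458, edgeR). *Il34*, at 0 to 2.72 CPM and 0 to 1.75 CPM, was too low to be tested. *Wnt7b*, the macrophage signal of hyaloid regression and also a gene of the lens epithelium, had 247 to 450 CPM and 269 to 580 CPM. Its log2 fold change was 0.09 (adjusted p = 0.879, edgeR), and -0.02 without wildtype replicate 5 (adjusted p = 0.972, edgeR). *Tgfb2* had 188 to 231 CPM and 193 to 292 CPM, with a log2 fold change of 0.13 (adjusted p = 0.662, edgeR). Of the 15 ligands listed, 12 were tested, and 1 passed with all 9 libraries, *Vegfa*, beside 5.90% of all genes. Without wildtype replicate 5, *Cxcl12* was also called, 3.62-fold higher (adjusted p = 0.045, edgeR), while with it the fitted difference was -1.15.

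Among 12 partners of vascular signaling, *Sema3a* and *Sparc* fell in both fits, beside 3.67% and 4.96% of all genes. *Sema3a*, a guidance cue that repels endothelial cells and axons, had 286, 224, 262, 248 and 187 CPM in the wildtype and 77.3, 108, 96.1 and 84.9 CPM in the *Atf4* null libraries. The groups lay far apart, with a log2 fold change of -1.40 and, without wildtype replicate 5, of -1.47 (adjusted p = 0.000101 and 3.26e-06, edgeR). *Sparc*, a matrix protein made by the lens, had 738 to 1082 CPM and 415 to 581 CPM, with a log2 fold change of -0.65 and -0.54 (adjusted p = 0.0179 and 0.011, edgeR). *Col18a1*, the precursor of endostatin, had 225 to 366 CPM and 341 to 380 CPM, with a log2 fold change of 0.23 (adjusted p = 0.407, edgeR). The receptors for the regression signal, *Fzd4*, *Lrp5* and *Lrp6*, had log2 fold changes of -1.02, 0.52 and -0.13 (adjusted p = 0.15, 0.251 and 0.64, edgeR), and of -0.57, 0.66 and -0.03 without wildtype replicate 5 (adjusted p = 0.264, 0.0738 and 0.913, edgeR).

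**Figure D4:**
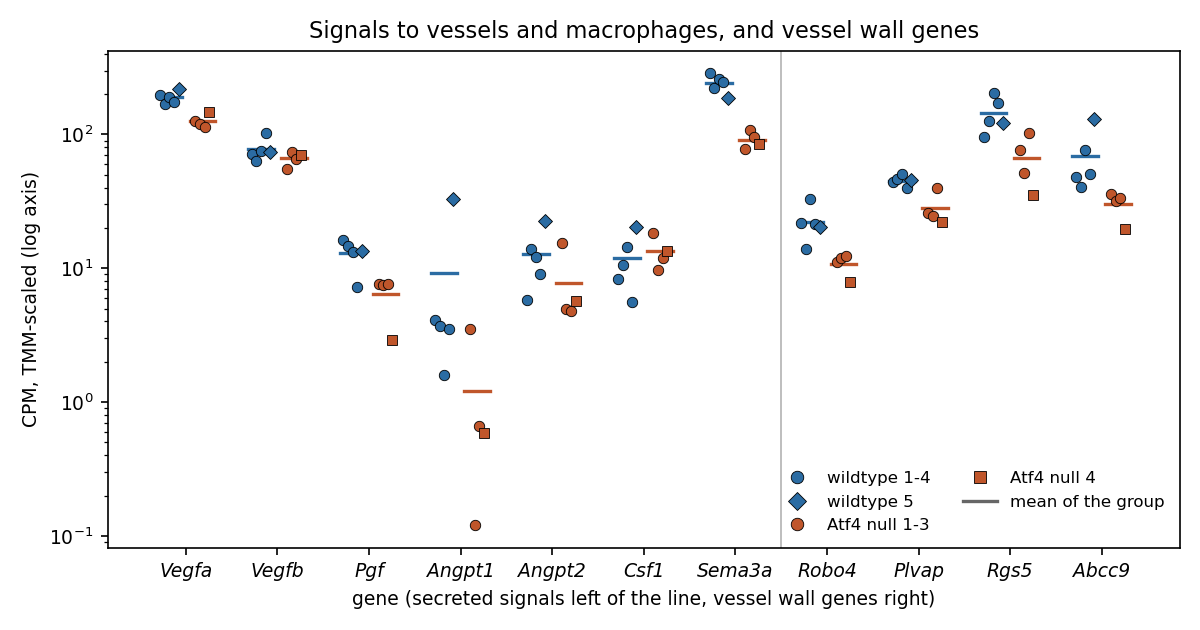
TMM-scaled CPM (log axis) of 7 secreted signals, left of the line, and 4 genes of endothelium and pericytes, right of it, in each library, with symbols as in the plot of the members' levels and bars at group means. *Vegfa* and *Sema3a* of the 2 groups do not overlap, at 169 to 220 against 114 to 148 CPM and at 187 to 286 against 77.3 to 108 CPM, and *Angpt1* is high in wildtype replicate 5 alone, at 33.1 CPM.

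Genes for the uptake of dying cells, a task that macrophages share with other cells, were read from a further list. Of 10 listed, 8 were tested, of which 1 passed with all 9 libraries and 3 without wildtype replicate 5, beside 5.90% and 8.33% of all genes. *Itgb5*, an integrin chain, fell with 216 to 247 CPM in the wildtype and 110 to 174 CPM in the nulls. Its log2 fold change was -0.75 with all 9 libraries and -0.72 without wildtype replicate 5 (adjusted p = 0.0046 and 0.00327, edgeR). *Gas6*, the bridging ligand of the TAM receptors, had 63.9 to 102 CPM and 44.8 to 75.0 CPM, and it passed without wildtype replicate 5 (log2 fold change -0.66, adjusted p = 0.0245, edgeR) and not with it (-0.58, adjusted p = 0.0831, edgeR). *Axl*, a TAM receptor, had 26.96 to 50.6 CPM in wildtype replicates 1 to 4, 183 CPM in replicate 5 and 42.4 to 74.5 CPM in the nulls. It rose in the fit without wildtype replicate 5 (log2 fold change 0.84, adjusted p = 0.0236, edgeR) and had a log2 fold change of -0.02 with it (adjusted p = 0.987, edgeR). *Mfge8*, another bridging ligand, had 76.5 to 91.9 CPM and 49.9 to 74.4 CPM without overlap, with a log2 fold change of -0.33 (adjusted p = 0.186, edgeR).

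The lymphatic list held genes that other tissues of the eye also express. *Reln* was higher in the *Atf4* null lenses, at 350 to 380 CPM against 122 to 206 CPM, with a log2 fold change of 1.15 (adjusted p = 0.000347, edgeR), and 1.11 without wildtype replicate 5 (adjusted p = 0.000104, edgeR). *Nrp2* had 8.22 to 11.8 CPM in wildtype replicates 1 to 4, 95.2 CPM in wildtype replicate 5 and 12.2 to 39.8 CPM in the null libraries, and was higher in the null lenses only in the fit without that library (log2 fold change 1.29, adjusted p = 0.0166, edgeR). *Ccl21a* was at 0 counts in all 9 libraries. Of the 5 genes tested of 6, 1 passed with all 9 libraries and 2 without wildtype replicate 5, beside 5.90% and 8.33% of all genes. The fitted level was lower for 4 and 3 of the 5, against 49.9% and 47.3% of all genes.

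**Figure D5:**
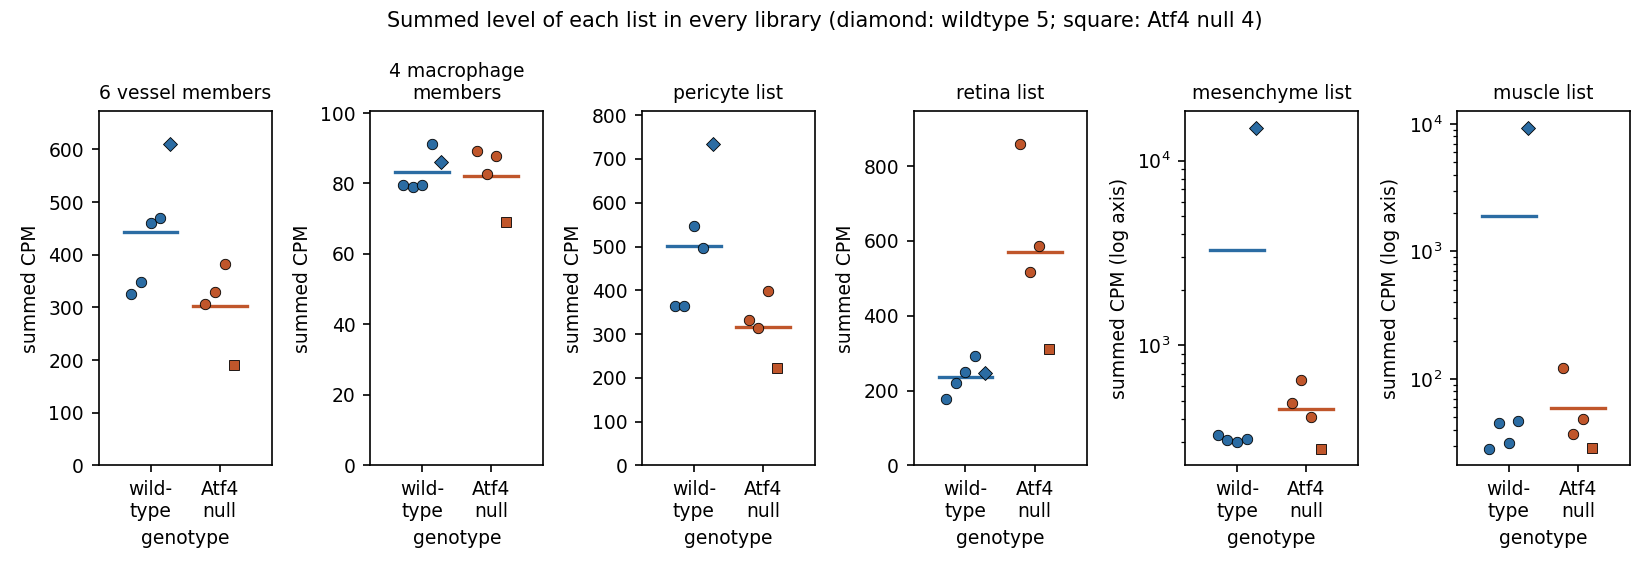
Summed TMM-scaled CPM of the vessel members, the macrophage members and 4 lists of other cell types, in each library, on linear axes from 0 except for the mesenchyme and muscle lists, which have log axes. Bars are group means. Wildtype replicate 5 holds 611 CPM of the vessel members, 15104 CPM of the mesenchyme list and 9356 CPM of the muscle list, and the 4 *Atf4* null libraries hold 312 to 860 CPM of the retina list.

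Over the 8 libraries other than wildtype replicate 5, the genes whose log2 CPM varied most like *Pecam1* were *Sh3bgr*, *Eps15l1*, *Lingo4*, *Man2b2* and *Nos1ap*, with Pearson r from 0.972 to 0.983. *Cdh5* and *Tek* had r of 0.895 and 0.845 with it, *Cldn5* 0.657, *Kdr* 0.62 and *Flt1* 0.529. Of the macrophage genes, *Csf1r* had 0.52 with *Pecam1*, *Lyve1* 0.259, *C1qa* -0.049 and *Mrc1* -0.164. For *C1qa* the nearest were *Mettl8*, *Mdk*, *C130021I20Rik*, *Gm42878* and *Ccdc30*, with r from 0.935 to 0.962. Its r with *Csf1r*, *Lyve1* and *Mrc1* was 0.349, 0.092 and -0.544. With the vessel genes it ran from -0.201 for *Flt1* to 0.364 for *Kdr*. These r describe 8 libraries that share 2 genotypes and their scaling, picked as the highest among all genes tested, and were not tested.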

How the data were processed

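RNA of whole E16.5 lenses was sequenced with 1 library per embryo, 4 *Atf4* null and 5 wildtype. Per the study's methods and the submitters' processing notes, the authors trimmed reads with Trim Galore, used HISAT2 to remove ribosomal RNA reads, took the remaining reads to GRCm39 and deposited HTSeq counts per Ensembl gene, without normalization; the tool versions and strand setting are not given in the sources used here. The 5 HTSeq summary entries, 44.6% to 47.7% of the entries of a library, were left out. Symbols, positions and exon lengths came from GENCODE vM39, which named 54749 of 55416 identifiers. After filterByExpr and TMM scaling, the genotypes were compared without covariate by the quasi-likelihood test of edgeR 4.0.16 in R 4.3.3, with Benjamini-Hochberg adjustment over all genes tested and a threshold of 0.05, a departure from the exactTest that the authors used, which is an alternative here. Intervals are 95% from the fitted standard error. Their median standard error was 0.27 on the log2 scale. Single genes were also compared by two-sided exact permutation over 126 splits of 9 libraries, or 70 of 8, on log2 of CPM plus 0.5. Correlations used log2 CPM with a prior count of 2. FPKM are CPM divided by exon length in kilobases. The procedure was tested on simulated data.

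The 10 genes, the lists and the tests were chosen with earlier results of these data known. From each list were named the genes called without overlap of the groups in either fit, at most 5, and the 2 most abundant, besides 7 ligands of the receptors whatever their values (*Vegfa*, *Vegfb*, *Pgf*, *Angpt1*, *Angpt2*, *Csf1* and *Il34*), and *Plvap*, *Rgs5*, *Cxcl12*, *Vegfc*, *C1qb*, *C1qc*, *Fzd4*, *Lrp5*, *Lrp6* and *Axl*, as calls or relatives noted after their values were seen. Lists of skeletal muscle, mesenchyme, retina, pigment and lens genes served to describe other tissues. Alternatives were exactTest, DESeq2 1.42.0, library size, factors without lens and crystallin genes, no filter, a robust fit, a filter of at least 10 counts per gene and library, the replicate block, and each library left out. Promoter windows were read from the GRCm39 genome, since the RefSeq promoter table is of another build. The windows of *Csf1r* and *Cdh5* are not reported here. Python 3.11.15 and scipy 1.17.1 were used.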

Additional observations from a re-analysis of the deposited data

Results flagged for a closer look

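In 21 cases a library of a group stood apart from the rest of its group by a gap, as a share of the whole range of the group, above Dixon's 95% critical value for a group of that size. The 130 groups examined were the wildtype and null libraries for the genes and summed lists whose levels are described, and chance flags about 1 in 20. Among the members this held for *Tek* alone, where *Atf4* null replicate 3 at 23.4 CPM stood above the next library at 13.1 CPM, a gap of 0.832 of the range.

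Wildtype replicate 5 stood above the other wildtype libraries in *Nrp2* (95.2 against at most 11.8 CPM, gap 0.958), *Cxcl12* (135 against 5.81 CPM, gap 0.966), *Angpt1* (33.1 against 4.11 CPM, gap 0.921), *Axl* (183 against 50.6 CPM, gap 0.848), *Sparc* (1082 against 816 CPM, gap 0.773), *Fzd4* (63.2 against 28.5 CPM, gap 0.786), *Lrp6* (238 against 189 CPM, gap 0.741) and *Col1a1* (6600 against 29.1 CPM, gap 0.997). It also stood above them in the summed muscle (9356 against 47.2 CPM, gap 0.998), mesenchyme (15104 against 326 CPM, gap 0.998) and pigment lists (155 against 63.7 CPM, gap 0.736). It stood below them in *Cryaa* (30179 against 51826 CPM, gap 0.912), *Crybb1* (9845 against 17428 CPM, gap 0.821) and the summed lens list (56782 against 97514 CPM, gap 0.862). The part of the muscle and mesenchyme sums in the values of single genes was not tested.

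*Atf4* null replicate 1 stood above its group in *Angpt1* (3.49 against 0.658 CPM, gap 0.84) and *Angpt2* (15.5 against 5.68 CPM, gap 0.92) and below it in *Sparc* (415 against 559 CPM, gap 0.867). *Atf4* null replicate 4 stood below its group in *Pgf* (2.91 against 7.56 CPM, gap 0.975) and *Pdgfra* (6.70 against 23.8 CPM, gap 0.876). *Atf4* null replicate 3 stood above its group in *Il34* (1.75 against 0.0997 CPM, gap 0.943).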

How the results depend on the processing

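Over 31 alternatives, 14 of them added after the data had been seen, *Pecam1* kept a lower fitted level (-1.13 to -0.49 log2), as did *Cdh5* (-0.88 to -0.28), *Flt1* (-0.63 to -0.23), *Tek* (-1.43 to -0.57) and *Cldn5* (-1.08 to -0.38), while *Kdr* ranged from -0.45 to 0.02, *Lyve1* from -0.43 to 0.01 and *C1qa* from 0.22 to 0.81. The cause of the changes below was not tested. With all 9 libraries, DESeq2 called 2 members, *Pecam1* (-0.83) and *Tek* (-1.13), exactTest called 1, *Tek* (-1.12), and no filter on low counts, which changes the genes tested and the adjustment, called 3, *Pecam1* (-0.82), *Cdh5* (-0.68) and *Tek* (-1.12). Leaving out 1 library called 0 to 1 members, and leaving out wildtype replicate 5 with another called 0 to 2. Adjusted p over the alternatives ran from 0.0119 to 0.257 for *Pecam1*, 0.045 to 0.485 for *Cdh5* and 0.0155 to 0.303 for *Tek*. The sign of *Kdr* turned without wildtype replicate 5 under library size (0.00) and without *Atf4* null replicate 4 as well (0.02). That of *Csf1r* turned without null replicate 2 (-0.02) or 3 (-0.05), and, wildtype replicate 5 being left out too, without wildtype replicate 2 (-0.03) or 4 (-0.00) or null replicate 2 (-0.04) or 3 (-0.07). That of *Mrc1* turned under library size (0.00, and 0.15 without wildtype replicate 5), and, wildtype replicate 5 being left out, without wildtype replicate 1 (0.02) or 4 (0.05) or null replicate 2 (0.04) or 3 (0.05). That of *Lyve1* turned without wildtype replicate 4 (0.01). With 1 library left out, *Csf1r* reached 0.17 and *Mrc1* -0.20 in the direction of the main values, and the smallest fall of *Tek* without wildtype replicate 5 and another library was -0.60.

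The count over all genes was 880, 1397 with DESeq2, 527 to 1207 with 1 library left out, and, without wildtype replicate 5, 1545 by exactTest, 1704 by DESeq2, 1657 under library size and 795 to 1820 with a further library left out. Library size alone moved the median of all genes by 0.12 log2 (0.18 without wildtype replicate 5) and the share of higher calls from 37.8% to 64.3%. The endothelial list of 22 had 3 calls, 7 with DESeq2, 5 with no filter, 0 under library size and 0 to 2 with 1 library left out, and without wildtype replicate 5 it had 5 with DESeq2, 0 under library size, 1 with the replicate block and 0 to 2 with a further library left out. The pericyte list had 2 calls, 0 under library size in both comparisons, 0 with the robust fit (1 without wildtype replicate 5) and 0 to 2 with libraries left out. The macrophage list had 0 calls, and 0 to 1 with wildtype replicate 5 and a further library left out. The ligand list had 1 call, 2 with no filter, 0 to 2 with libraries left out, and 2 without wildtype replicate 5 by exactTest, DESeq2, library size, factors without lens genes and the robust fit. *Axl* turned from -0.02 to 0.06 under library size, 0.84 without wildtype replicate 5 and 0.13 without null replicate 4, *Nrp2* from -0.12 to 1.29 and 0.10, and *Cxcl12* from -1.15 to 1.85 without wildtype replicate 5. With 1 library left out their lowest values were -0.22, -0.44 and -1.48.

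Deviations of libraries with the same number correlated at -0.065 to -0.007. Since the wildtype numbers are uncertain, these values cannot show whether the samples are paired. With the replicate block, in which wildtype replicate 5 has no partner, 0 members were called, with *Pecam1* at -0.73 and *Tek* at -0.76, and *Nrp2* was at 1.19, *Cxcl12* at 1.81 and *Axl* at 0.85.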
